A study of Homo sapiens with 4 samples.

Results

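The transcriptomes of a lung line and a colorectal line were set side by side in the same plasma-like medium. H441 was derived from a lung adenocarcinoma and HT29 from a colorectal adenocarcinoma, and the labels describe both as wild-type epithelial cancer cells. Each line had been kept for 7 days in human plasma-like medium (HPLM), which is formulated to carry amino acids, glucose and other small molecules at levels near those of human plasma, with 10% FBS and 1% P/S. Poly(A) RNA was sequenced, and the values are TPM, a transcript abundance in which read counts are corrected for gene length and scaled to the same sum in every library. The 3 HPLM libraries of H441 and the 3 of HT29 were joined on gene identifier, and the 17738 of 58051 genes with at least 1 TPM in at least 3 of these 6 libraries were tested. At the edge of that rule, EZR-AS1 was the lowest gene inside, with a third-highest value of 1.0002 TPM, and ENSG00000254548 the highest outside, at 0.9997 TPM. Matching libraries of both lines in RPMI-1640, a conventional medium with the same supplements, served to ask whether a line difference depended on the medium.

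Epithelia of the lung and of the gut both arise from endoderm, and each keeps its own set of transcription factors. NKX2-1 drives surfactant and other alveolar genes in the lung, while CDX2, HNF4A and HNF1 factors drive brush border and absorptive genes in the intestine, and the HOX genes record position along the body axis. Colorectal tumours commonly carry active Wnt signalling, and many lung adenocarcinomas carry active receptor tyrosine kinase and RAS signalling. Nutrient media act on a further layer: the ATF4 pathway responds to amino acid shortage, the unfolded protein response to protein load in the endoplasmic reticulum, NRF2 to oxidants and electrophiles, and SREBP2 to sterols.

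Each library held 17.7 to 24.1 M recovered reads. The deposited tables give 3 numbered libraries where GEO names a single sample per line and medium, and no label says that these were separate cultures. A p-value here therefore measures the spread among 3 libraries, which may be technical only. Libraries of the same line differed by more than counting noise (chi-square over its degrees of freedom, 2.25 to 4.46 among H441 and 3.13 to 15.5 among HT29 libraries), so none was a repeat deposit. Each line came in its own deposited table, and line and table cannot be told apart. Nor can fewer cells of a kind and less RNA per cell be told apart in bulk RNA. The library kit keeps no strand, so reads of overlapping and antisense genes are not separable.

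Differences are given as log2(TPM + 1) of H441 minus HT29, with the standard error and the p-value of limma after Benjamini-Hochberg adjustment over all 17738 genes, and 0.05 as the threshold. For genes with low TPM this scale gives less than the true change. Most of the transcriptome differed: 8792 genes (49.6%) were higher in H441 and 4953 (27.9%) were higher in HT29, 13745 (77.5%) in all. Libraries of the lines did not overlap for 51.1% of genes, higher in H441, and for a further 28.9%, higher in HT29. A difference of 2-fold or more was found for 4624 genes (26.1%) higher in H441 and 2408 (13.6%) higher in HT29. As 3 against 3 libraries sufficed to call so much of the transcriptome, the size of a difference carries more than the fact that it was called.

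The direction of small differences depended on scaling. Transcripts encoded by the mitochondrial genome took 17.97%, 21.67% and 17.47% of TPM in the H441 libraries and 29.64%, 33.18% and 38.7% in the HT29 libraries. The HT29 share was higher in every library, 33.8% ± 4.57 against 19.0% ± 2.29 (SD, n = 3 each; exact two-sided permutation p = 0.1, the smallest that 3 against 3 libraries allow). Since TPM has a fixed sum, every other gene shares what is left, and the median difference of all tested genes stood at 0.297 rather than 0. With those genes left out it was 0.0237, and with TMM scaling −0.0443. The share of calls that were higher in H441 was 64.0% as tested, 52.6% without mitochondrially encoded genes, 49.4% with TMM scaling, 50.4% with median centring, 49.5% with edgeR and 50.2% with DESeq2 on recovered reads. List medians below are therefore read against 0.297, and list counts against the 49.6% and 27.9% of all tested genes higher in H441 and in HT29. List counts also include members whose sign turned with TMM scaling. Over all lists these were 64 of 874 members past the filter, of which 19 had been called higher in H441 and 45 not called. Where such a gene is given with values below, that is said.

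**Figure D1:**
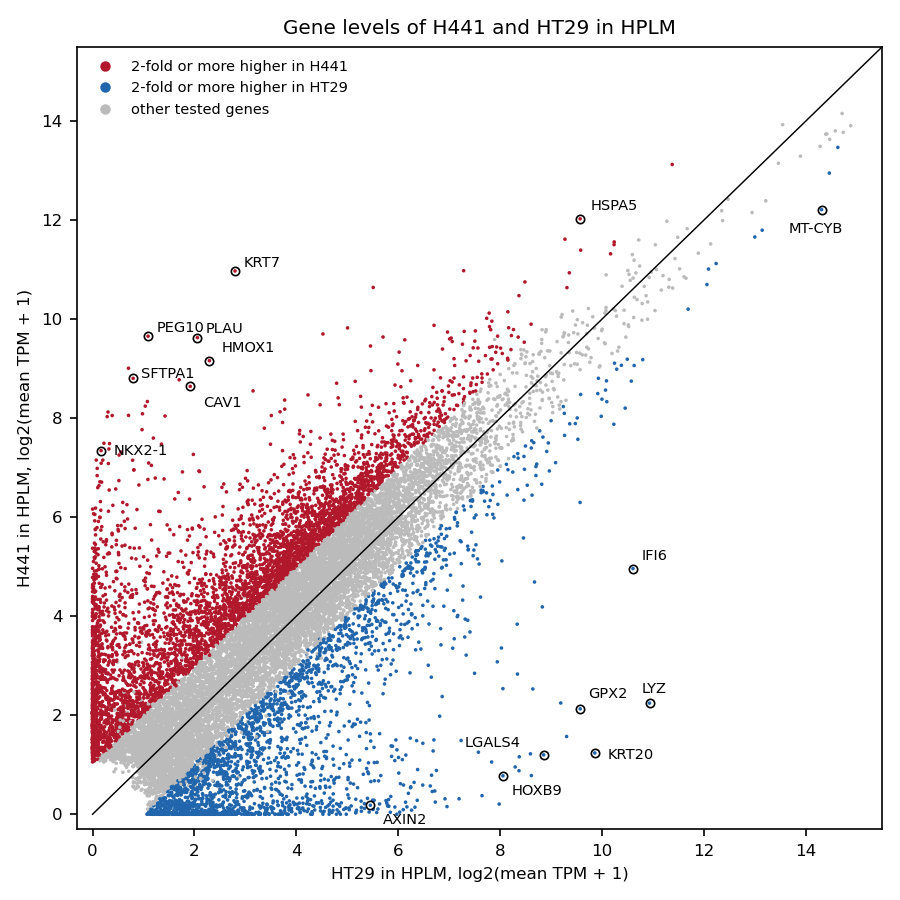
Mean level of each of 17738 tested genes in HT29 (horizontal) and H441 (vertical), both as log2(mean TPM + 1) over 3 HPLM libraries, with the diagonal marking equal levels. Red points are the 4624 genes called and 2-fold or more higher in H441, blue points the 2408 higher in HT29, and circles mark named genes, with KRT7 and PEG10 far above the diagonal and LYZ and KRT20 far below it.

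Among tested genes with at least 20 TPM in their higher line, the widest gaps in favour of H441 belonged to KRT7, PEG10, SFTPA1, EFEMP1, KRT4, PLAU, RPL39L, RAB34, MUC1, SFTPA2, NKX2-1, TFPI2, BASP1, SFTA3 and TMEM156. PEG10 (ENSG00000242265, chromosome 7, 94656325 to 94669695), an imprinted gene derived from a retrotransposon, stood at 848, 761 and 809.7 TPM in the H441 libraries and 1.0, 1.23 and 1.15 in the HT29 libraries. EFEMP1, an extracellular matrix protein of elastic fibres, stood at 270.1, 249 and 263 TPM in the H441 libraries and 0.166, 0.302 and 0.192 in the HT29 libraries. RAB34, a small GTPase of vesicle traffic and cilia, stood at 176, 176 and 186 TPM in the H441 libraries and 0.119, 0.0898 and 0.293 in the HT29 libraries. In each of these the lines did not overlap, and HT29 was near or below 1 TPM. BASP1, a membrane-associated protein of the growing neurite, averaged 272 ± 8.06 TPM in H441 and 0.972 ± 0.298 in HT29 (SD, n = 3), a difference of 7.12 ± 0.12 (limma adjusted p = 4.21e-08). For TMEM156, a membrane protein, the difference was 7.08 ± 0.11 (limma adjusted p = 3.68e-08). RPL39L, a copy of the ribosomal protein gene RPL39 with which it may share reads, differed by 7.37 ± 0.14 and is uncertain for that reason.

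In favour of HT29 the widest gaps belonged to LYZ, KRT20, TSPAN8, SPINK1, LGALS4, CASC19, GPX2, IFI27, ALDH1A1, HOXB9, NTSR1, TM4SF4, KLK6, HOXB7 and H2AC25. LYZ (ENSG00000090382, chromosome 12, 69348341 to 69354234), which encodes lysozyme, stood at 2092, 2006 and 1773 TPM in the HT29 libraries and 6.21, 3.35 and 1.66 in the H441 libraries. SPINK1, a secreted inhibitor of trypsin, stood at 661, 603 and 633 TPM in the HT29 libraries and 1.82, 1.74 and 2.35 in the H441 libraries. TSPAN8, a tetraspanin of gut epithelium, stood at 413, 395 and 365 TPM in the HT29 libraries and 0.985, 0.663 and 0.508 in the H441 libraries. All 3 HT29 libraries of these genes were far above all H441 libraries. LYZ differed by -8.80 ± 0.34 (limma adjusted p = 1.14e-06), the largest absolute gap of the 30 genes. NTSR1, the neurotensin receptor, averaged 199 ± 22 TPM in HT29 and 0.298 ± 0.25 in H441, and CASC19, a long noncoding RNA, 330.5 ± 33.8 TPM in HT29 and 0.839 ± 0.845 in H441. ALDH1A1, which makes retinoic acid from retinal, averaged 314 ± 23.6 TPM in HT29 and 0.939 ± 0.475 in H441.

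Most lung epithelial genes that passed the filter were higher in H441. Of 27 lung epithelial genes listed, 20 passed the filter, 16 were higher in H441 and 3 higher in HT29, with a median of 3.62 against 0.297 for all genes. Of its 10 members at 1 TPM or more in all 6 libraries, 6 were higher in H441 and 3 in HT29, where 53.1% and 24.9% of all 12931 such genes were. NKX2-1 (ENSG00000136352, chromosome 14, 36516392 to 36521149), the master regulator of lung epithelium, stood at 161, 154 and 169.8 TPM in the H441 libraries and 0.125, 0.142 and 0.103 in the HT29 libraries. That is 7.18 ± 0.07 on the log2 scale (limma adjusted p = 2.84e-08). Its neighbours SFTA3 (7.08 ± 0.07) and NKX2-1-AS1 (4.57 ± 0.06) differed in the same direction, but the 3 genes lie next to each other on chromosome 14 and reads cannot be assigned by strand.

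Surfactant genes were unequal within H441. SFTPA1 and SFTPA2 encode surfactant protein A, a collectin that lines the alveolus, and are near-identical copies among which reads may be split. SFTPA1 stood at 444, 436 and 459.7 TPM in the H441 libraries and 0.698, 1.16 and 0.354 in the HT29 libraries, and SFTPA2 at 306, 289 and 313 TPM in the H441 libraries and 1.37, 1.17 and 0.606 in the HT29 libraries. SFTPB, which spreads the lipid film, stood at only 5.68, 5.35 and 6.31 TPM in the H441 libraries and 0.064, 0.0364 and 0.0792 in the HT29 libraries. The A genes were thus abundant and SFTPB was not, still without overlap between lines (2.68 ± 0.08, limma adjusted p = 3.22e-07). SFTPC, the type II marker proper, was listed at 0 TPM in both lines, and SFTPD, SCGB1A1 and CLDN18 did not reach the filter.

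Other type II genes were placed in both directions. Higher in H441 was NAPSA, the protease that matures surfactant protein B, at 193 ± 11 TPM in H441 and 1.29 ± 0.166 in HT29. SLC34A2, the phosphate carrier of alveolar cells, averaged 71.8 ± 1.64 TPM in H441 and 0.0411 ± 0.049 in HT29. LPCAT1, which makes surfactant phospholipid, averaged 269 ± 10.4 TPM in H441 and 42.9 ± 3.62 in HT29, and HOPX, an alveolar homeobox protein, 44.7 ± 2.6 TPM in H441 and 0.204 ± 0.0080 in HT29. ABCA3, the lipid pump of lamellar bodies, was low at 2.69 ± 0.443 TPM in H441 and 0.316 ± 0.147 in HT29, a difference of 1.49 ± 0.13. The 3 listed genes that were higher in HT29 were LAMP3 (-2.74 ± 0.08), a lamellar body membrane protein that interferon also induces, CTSH (-1.42 ± 0.09), a lysosomal protease, and AGER (-0.39 ± 0.14), a type I cell receptor. SFTA2 did not differ beyond its spread, at 18.7 ± 1.27 TPM in H441 and 17.1 ± 4.51 in HT29 (limma adjusted p = 0.461), and its sign turned with TMM scaling.

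Promoters from RefSeq (GRCh38.p14, 250 bases before to 50 after the annotated start, 5′ to 3′ on the gene's strand) are shown first for the lung genes because NKX2-1 and the surfactant A genes were among the widest gaps in favour of H441. Capitals mark letters that match a short motif on either strand. The NKX2-1 half-site searched for was CTCAAG and the FOXA core was TGTTTAC. The CDX core was TTTATNG, and the TATA box was TATAAA, which can overlap it. The NKX2-1 window is chr14:36519507-36519806 (minus strand), the NAPSA window at the upstream of its 2 RefSeq starts chr19:50369253-50369552 (minus strand), the SFTPA1 window chr10:79610689-79610988 (plus strand) and the SFTPA2 window chr10:79560358-79560657 (minus strand). SFTPA1 and SFTPA2 were added after their values were seen.
NKX2-1: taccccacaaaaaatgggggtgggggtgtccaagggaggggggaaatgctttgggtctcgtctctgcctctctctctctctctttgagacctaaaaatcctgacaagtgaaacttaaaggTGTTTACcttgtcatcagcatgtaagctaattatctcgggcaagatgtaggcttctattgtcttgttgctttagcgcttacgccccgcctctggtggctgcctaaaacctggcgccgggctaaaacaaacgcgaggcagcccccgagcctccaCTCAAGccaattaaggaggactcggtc
NAPSA: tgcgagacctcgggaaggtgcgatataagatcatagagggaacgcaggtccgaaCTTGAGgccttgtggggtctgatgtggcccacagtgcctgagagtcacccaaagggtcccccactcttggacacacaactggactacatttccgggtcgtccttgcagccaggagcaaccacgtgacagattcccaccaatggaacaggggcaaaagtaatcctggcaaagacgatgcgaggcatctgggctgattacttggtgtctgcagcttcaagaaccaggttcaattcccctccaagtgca
SFTPA1: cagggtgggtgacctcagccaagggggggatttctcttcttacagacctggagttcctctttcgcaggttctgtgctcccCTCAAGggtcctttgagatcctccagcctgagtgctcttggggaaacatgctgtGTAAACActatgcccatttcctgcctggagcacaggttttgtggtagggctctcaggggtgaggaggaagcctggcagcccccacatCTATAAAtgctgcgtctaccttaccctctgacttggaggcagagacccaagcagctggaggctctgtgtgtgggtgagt
SFTPA2: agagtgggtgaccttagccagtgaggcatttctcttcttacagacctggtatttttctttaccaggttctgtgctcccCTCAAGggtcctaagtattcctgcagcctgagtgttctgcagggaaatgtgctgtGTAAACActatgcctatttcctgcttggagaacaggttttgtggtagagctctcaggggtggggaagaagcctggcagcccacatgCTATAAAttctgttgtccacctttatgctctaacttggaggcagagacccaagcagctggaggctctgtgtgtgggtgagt
The half-site lies 170 bases before the start in SFTPA1 and 172 before it in SFTPA2, with a FOXA core 116 and 117 bases before and a TATA box that overlaps a CDX core match. NAPSA holds a half-site 196 bases before the start, and none of these motifs at its other start. NKX2-1 itself holds a FOXA core 130 bases before and a half-site after its start. The SFTPB window held none of the motifs searched.

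Intestinal genes that passed the filter were mostly higher in HT29. Of 34 intestinal epithelial genes listed, 17 passed the filter, 14 were higher in HT29 and 3 in H441, with a median of −2.06. Only 4 of them reached 1 TPM in all 6 libraries (3 higher in HT29 and 1 in H441), and the other 13 passed through the line where they were high, which fixes much of that count and median. KRT20 (ENSG00000171431, chromosome 17, 40875941 to 40885227), the keratin of differentiated gut epithelium, stood at 972, 965 and 849 TPM in the HT29 libraries and 2.02, 1.07 and 0.99 in the H441 libraries, and LGALS4, a galectin of the brush border, at 495, 466 and 426 TPM in the HT29 libraries and 1.72, 1.2 and 0.967 in the H441 libraries. CDX2 (ENSG00000165556, chromosome 13, 27962137 to 27971139), the gut homeobox factor, was much lower in absolute terms, at 3.51, 3.23 and 2.95 TPM in the HT29 libraries and 0, 0.0368 and 0 in the H441 libraries. HNF4A, a nuclear receptor of gut and liver, stood at 9.63, 10.1 and 8.8 TPM in the HT29 libraries and 0, 0 and 0 in the H441 libraries. In all of these genes the lines were fully separated, and H441 was listed at 0 TPM for HNF4A. VIL1, which bundles actin in microvilli, differed by -3.98 ± 0.09, and the brush border proteins EPS8L3 by -6.19 ± 0.06, USH1C by -5.92 ± 0.13 and CDHR5 by -3.98 ± 0.10.

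The other 17 members of the intestinal list did not pass the filter. They included CDX1 (0.0988 TPM in HT29), CDH17 (0.867 TPM), a cadherin used as a marker of gut cancers, FABP1 (listed at 0 TPM in both lines), and the mature colonocyte genes SLC26A3, CA1, CA4, AQP8 and MS4A12. GPA33, the A33 antigen of colon, went against its list: it stood at 4.84, 5.55 and 6.79 TPM in the H441 libraries and 0.329, 0.374 and 0.305 in the HT29 libraries (2.32 ± 0.11, limma adjusted p = 3.32e-06). It was higher in every H441 library than in any HT29 library. PLS1, an actin bundler of microvilli, was likewise higher in H441, 1.78 ± 0.10.

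**Figure D2:**
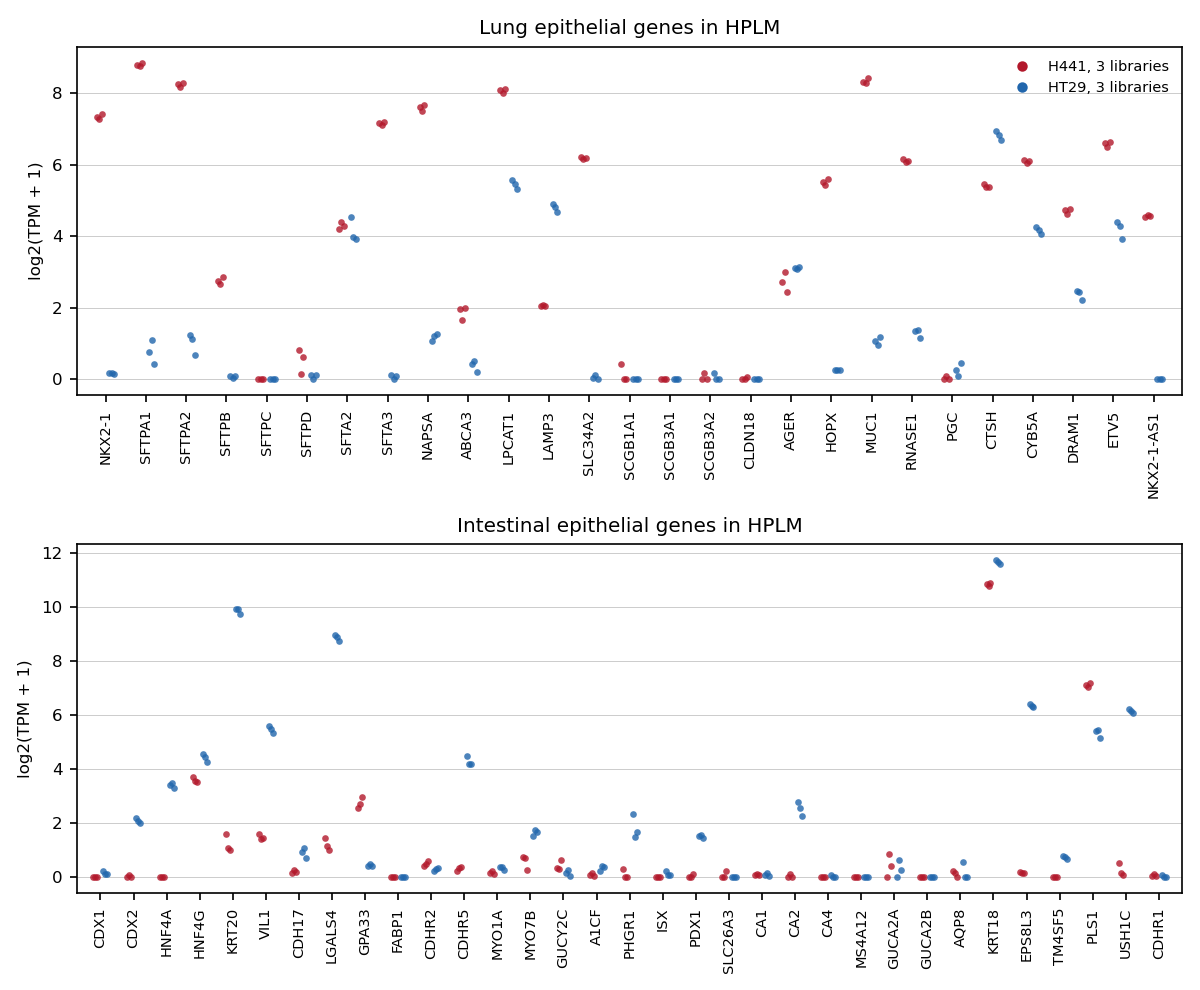
Level of each of 27 lung epithelial genes (top) and 33 of the 34 intestinal epithelial genes (bottom) as log2(TPM + 1), 1 point per HPLM library, H441 in red and HT29 in blue. Red points stand above blue ones for 16 of the lung genes and blue above red for 14 of the intestinal genes, with LAMP3, CTSH and AGER and GPA33 and PLS1 among the called exceptions.

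Intestinal promoters are shown because CDX2 and HNF4A are themselves among the genes that separated the lines. In the following, capitals mark CDX cores (TTTATNG), HNF1 half-sites (GTTAAT) and FOXA cores (TGTTTAC) on either strand. The windows are chr13:27969266-27969565 (minus strand) for CDX2, chr17:40885193-40885492 (minus strand) for KRT20, chr20:44400989-44401288 (plus strand) for HNF4A at the downstream of its RefSeq starts, and chr11:1074624-1074923 (plus strand) for MUC2.
CDX2: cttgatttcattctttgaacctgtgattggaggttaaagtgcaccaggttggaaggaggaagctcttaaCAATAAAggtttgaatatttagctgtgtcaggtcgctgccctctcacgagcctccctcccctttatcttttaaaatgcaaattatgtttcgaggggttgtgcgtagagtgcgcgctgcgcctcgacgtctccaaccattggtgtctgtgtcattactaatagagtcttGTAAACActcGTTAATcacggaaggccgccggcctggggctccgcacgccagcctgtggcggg
KRT20: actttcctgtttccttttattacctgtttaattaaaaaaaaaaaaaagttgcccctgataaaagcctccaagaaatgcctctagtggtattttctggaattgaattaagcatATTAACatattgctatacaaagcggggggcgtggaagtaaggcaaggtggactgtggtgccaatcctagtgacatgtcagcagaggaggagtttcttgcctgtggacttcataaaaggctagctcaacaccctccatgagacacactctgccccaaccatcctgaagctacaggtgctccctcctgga
HNF4A: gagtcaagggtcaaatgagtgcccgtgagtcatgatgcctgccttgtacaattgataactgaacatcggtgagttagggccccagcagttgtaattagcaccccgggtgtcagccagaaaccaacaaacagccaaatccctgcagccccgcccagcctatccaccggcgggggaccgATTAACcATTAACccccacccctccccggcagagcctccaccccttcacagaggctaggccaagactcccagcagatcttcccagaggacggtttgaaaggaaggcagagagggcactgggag
MUC2: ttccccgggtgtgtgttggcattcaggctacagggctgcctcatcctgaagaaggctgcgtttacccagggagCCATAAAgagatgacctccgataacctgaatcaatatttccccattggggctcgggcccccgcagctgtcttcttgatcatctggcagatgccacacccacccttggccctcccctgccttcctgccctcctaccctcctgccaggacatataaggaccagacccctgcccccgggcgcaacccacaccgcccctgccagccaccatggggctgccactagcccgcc
CDX2 holds a CDX core 181 bases before its start, a FOXA core 13 bases before it and an HNF1 half-site 3 bases before it. KRT20 holds an HNF1 half-site 138 bases before its start, and HNF4A holds 2, at 73 and 66 bases before. MUC2, whose window has a CDX core 177 bases before the start, did not pass the filter (0.347 TPM in HT29), so that a match did not go with a level. The LGALS4 window held none of the motifs searched.

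Such matches are common, and their shares are given as a description. Over one promoter for each of 27305 symbols, the CDX core was found in 10.1%, the HNF1 half-site in 6.89%, the NKX2-1 half-site in 12.4%, the FOXA core in 3.41% and the TATA box in 12%, and the HNF4 core CAAAGTC and the TCF/LEF core ATCAAAG in 3.43% and 2.64%. Among 11141 tested genes with a promoter, the HNF1 half-site was in 3.74%. It was in 7.03% of the 1209 promoters of genes 2-fold or more higher in HT29 and in 3.56% of the 3228 of genes 2-fold or more higher in H441. For the CDX core the shares were 8.19% and 5.67% (tested genes 6.02%), and for the TATA box 10.3% and 5.76% (6.01%). For the NKX2-1 half-site they were 12.3% and 10.1% (10.5%), so the share was not higher among the genes higher in H441.

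Of 39 HOX genes listed, 27 passed the filter, 26 of them higher in HT29 and only HOXD1 higher in H441, with a median of −4.11. None of the 27 reached 1 TPM in all 6 libraries, so each passed through the line that expressed it. All 11 HOXA genes were higher in HT29, with a summed level of 239.5 ± 17.7 TPM against 0.339 ± 0.334 TPM in H441 (SD, n = 3). In the HOXB cluster, 9 of 10 were higher in HT29, with a sum of 743 ± 34.7 TPM against 3.05 ± 1.08 TPM. In the HOXC cluster, 6 of 9 were higher in HT29, 91.9 ± 4.96 TPM against 0.259 ± 0.0907 TPM. The HOXD cluster was close to silent in both lines except for HOXD1, and its sum was 5.09 ± 0.965 TPM in H441 and 0.826 ± 0.107 in HT29.

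HOXB9 (ENSG00000170689, chromosome 17, 48621159 to 48626356), of the posterior part of its cluster, stood at 281, 267 and 248 TPM in the HT29 libraries and 0.961, 0.823 and 0.354 in the H441 libraries. HOXB7 stood at 152, 147 and 137 TPM in the HT29 libraries and 0.406, 0.199 and 0.119 in the H441 libraries. HOXA5, an anterior member that also patterns the lung, stood at 66.1, 64.4 and 62.6 TPM in the HT29 libraries and 0, 0.0889 and 0 in the H441 libraries. Every HT29 library was above every H441 library for all 3, with differences of -7.30 ± 0.15, -6.89 ± 0.10 and -5.99 ± 0.07. HOXB13, the last gene of the HOXB cluster and a marker of distal colon and prostate, was low in HT29 at 3.68 ± 0.516 TPM, and HOXA13, its HOXA counterpart, stood at 16.8 ± 1.16 TPM. HOXD1 stood at 3.98, 4.38 and 5.92 TPM in the H441 libraries and 0, 0 and 0 in the HT29 libraries. Its difference was 2.51 ± 0.13 (limma adjusted p = 3.98e-06).

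**Figure D3:**
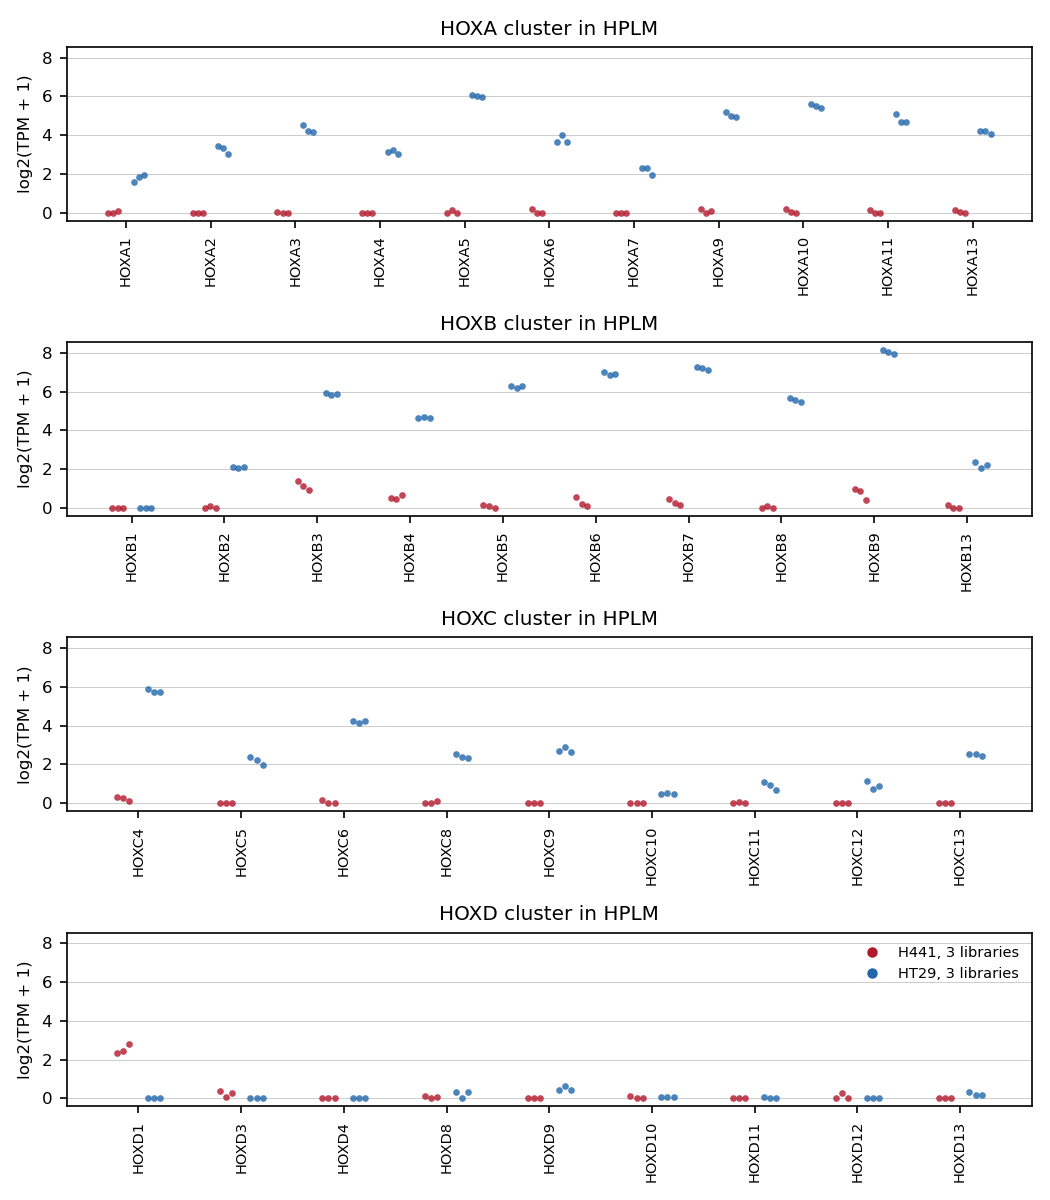
Level of 39 HOX genes by cluster as log2(TPM + 1), ordered by number, 1 point per HPLM library, H441 in red and HT29 in blue. HT29 points lie above H441 points across HOXA, HOXB and most of HOXC, while HOXD is near 0 in both lines apart from HOXD1 in H441.

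Among 36 endoderm and epithelial transcription factors, 32 passed, 12 were higher in H441 and 19 in HT29, with a median of −0.76. The forkhead factors divided: FOXA1, the pioneer factor of lung and other epithelia, stood at 169, 160.1 and 176 TPM in the H441 libraries and 40.2, 38.2 and 37.6 in the HT29 libraries, while FOXA2 stood at 1.27, 2.04 and 1.47 TPM in the H441 libraries and 28.3, 25.7 and 22.3 in the HT29 libraries. The lines were fully separated in opposite directions for these paralogs (2.09 ± 0.07 and -3.35 ± 0.14). H441 was higher for SOX2, a foregut factor (5.28 ± 0.09), TP63, the basal cell factor (2.55 ± 0.08), GRHL1 (3.58 ± 0.09) and ETV5 (2.38 ± 0.13), an effector of FGF and ERK signalling. HT29 was higher for SOX9, a factor of crypt progenitors, at 99.5 ± 8.93 TPM in HT29 and 5.82 ± 1.03 in H441, for GATA6 (-1.88 ± 0.10), FOXA3 (-3.09 ± 0.13), ONECUT2 (-3.22 ± 0.09) and TBX3 (-3.58 ± 0.07). KLF4 did not pass the threshold (limma adjusted p = 0.0739).

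Of 31 Wnt target and feedback genes, 21 passed, 14 higher in HT29 and 6 in H441, with a median of −1.21. Of the 11 at 1 TPM or more in all 6 libraries, 5 were higher in each line. AXIN2 (ENSG00000168646, chromosome 17, 65528563 to 65561647), a feedback inhibitor read as a gauge of the pathway, stood at 43.9, 43.4 and 41.2 TPM in the HT29 libraries and 0.119, 0.145 and 0.14 in the H441 libraries. CD44, an adhesion receptor of crypt cells, stood at 95.4, 88.6 and 81.3 TPM in the HT29 libraries and 0.781, 0.422 and 0.309 in the H441 libraries. RNF43, a ligase that removes Wnt receptors, stood at 119.6, 114 and 106 TPM in the HT29 libraries and 12.8, 11.7 and 12.9 in the H441 libraries. None of the H441 libraries came near HT29 in these genes, with differences of -5.27 ± 0.06, -5.90 ± 0.13 and -3.08 ± 0.08. The stem cell factor ASCL2 was listed at 0 TPM in H441 and stood at 9.39 ± 0.57 TPM in HT29, whereas LGR5, its partner marker, stayed under the filter at 0.322 TPM. MYC, a target of several pathways besides Wnt, ran the other way at 680.0, 639.7 and 700.5 TPM in the H441 libraries and 124, 120.2 and 103 in the HT29 libraries (2.53 ± 0.09), as did CCND1 (1.04 ± 0.11), EPHB2 (2.46 ± 0.09) and LEF1 (0.58 ± 0.14).

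Of 20 keratins, 16 passed, 9 higher in H441 and 7 in HT29. KRT7 (ENSG00000135480, chromosome 12, 52232520 to 52252186), the simple keratin of lung and other ductal epithelia, stood at 1997, 1982 and 2058 TPM in the H441 libraries and 6.11, 5.4 and 6.34 in the HT29 libraries. With KRT20 at 1.36 against 929 TPM, the pair that pathologists read for site of origin was reversed between the lines. KRT4, of mucosal squamous epithelium, differed by 7.67 ± 0.08, and KRT81 by 3.09 ± 0.10 and KRT86 by 1.01 ± 0.11, near-identical hair keratins whose reads may be split. KRT8 (-0.80 ± 0.08) and KRT18 (-0.82 ± 0.07), the keratins of all simple epithelia, were higher in HT29, and KRT19 in H441 (1.58 ± 0.08).

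Of 27 goblet cell, trefoil and mucin genes, 13 passed, 4 higher in H441 and 8 in HT29, with a median of −1.21. Of these, 8 were under 1 TPM in some library and passed through their higher line, MUC1, MUC4, MUC5AC, MUC13, MUC21, TFF1, TFF3 and AGR3, and the 5 at 1 TPM or more in all 6 libraries divided 1 against 3. H441 carried the membrane mucins MUC1 (319, 309.6 and 339 TPM in the H441 libraries and 1.09, 0.951 and 1.29 in the HT29 libraries), MUC21 (6.22 ± 0.07) and MUC4 (4.96 ± 0.07). HT29 carried MUC13, a gut membrane mucin, at 242, 231 and 209 TPM in the HT29 libraries and 1.12, 0.911 and 1.2 in the H441 libraries, and MUC5AC, a gastric-type gel mucin, at 13, 11.3 and 10.0 TPM in the HT29 libraries and 0.166, 0.104 and 0.147 in the H441 libraries. These genes showed no overlap between lines. SPDEF, which drives goblet cells, differed by -1.82 ± 0.09, and TFF3, the trefoil peptide of goblet cells, was low in both lines at 2.16 ± 0.761 TPM in HT29 and 0.102 ± 0.0917 in H441. CEACAM genes, surface glycoproteins of gut epithelium, were higher in HT29 in 4 of 5 that passed: CEACAM1 (-3.53 ± 0.09), CEACAM7 (-2.33 ± 0.08), CEACAM6 (-1.88 ± 0.11) and, slightly, CEACAM19 (-0.36 ± 0.07). CEACAM5, the carcinoembryonic antigen, was higher in H441, at 28.1 ± 1.53 TPM in H441 and 13.5 ± 1.06 in HT29. Its paralogs are close enough in sequence for reads to be shared.

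Both lines kept an epithelial junction set. EPCAM, the epithelial adhesion molecule, stood at 861, 798 and 855 TPM in the H441 libraries and 865, 847 and 781 in the HT29 libraries, overlapping, with a difference of 0.01 ± 0.07 that changed sign with TMM scaling (-0.36). CDH1, E-cadherin, was higher in H441, 1.28 ± 0.09. Of 25 claudin and junction genes, 22 passed, 13 were higher in H441 and 4 in HT29, against 49.6% and 27.9% of all tested genes. CDH3, P-cadherin, stood at 224, 213 and 228 TPM in the H441 libraries and 10.6, 9.3 and 8.13 in the HT29 libraries, and OCLN, occludin, differed by 2.10 ± 0.10. HT29 was higher for CLDN2, the leaky-pore claudin, at 17.1, 17.2 and 14.9 TPM in the HT29 libraries and 0.121, 0.267 and 0.375 in the H441 libraries, and for CLDN3 (-3.17 ± 0.13) and CLDN7 (-0.31 ± 0.08).

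Several matrix and motility genes were higher in H441. Of 24 genes associated with epithelial to mesenchymal transition, 19 passed, 13 higher in H441 and 4 in HT29, with a median of 1.44. ZEB1, SNAI2, ITGA5 and COL1A1 in H441 and LOX in HT29 passed only through the line where they were high. That fixes part of this count and median. TGFBI, a matrix protein induced by TGF-beta, stood at 1634, 1537 and 1620.3 TPM in the H441 libraries and 47.1, 45.4 and 41.3 in the HT29 libraries. FN1, fibronectin, stood at 112, 104 and 107 TPM in the H441 libraries and 1.13, 1.04 and 1.19 in the HT29 libraries. CCN1, a secreted YAP target, differed by 3.94 ± 0.07, THBS1 by 3.88 ± 0.07, and the repressor SNAI2 by 3.66 ± 0.15. All 6 libraries kept VIM, the mesenchymal filament, at single digits (5.0 ± 0.719 TPM in H441 and 2.64 ± 0.225 in HT29), called higher in H441 (0.72 ± 0.11). The repressors ZEB1 (1.44 ± 0.06) and SNAI1 (1.56 ± 0.12) were also higher in H441, while CDH2, ZEB2 and TWIST1 stayed under the filter. CCN2, a paralog of CCN1, was higher in HT29 (-2.31 ± 0.07), together with TGFB2 (-1.37 ± 0.12), LOX (-0.95 ± 0.09) and TAGLN (-0.79 ± 0.12). S100A4 was higher in H441 as tested (0.24 ± 0.08) but not in sign with TMM scaling (-0.13).

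COL1A1, the main chain of fibrillar collagen, stood at 43.9, 44.5 and 44.8 TPM in the H441 libraries and 0.161, 0.122 and 0.188 in the HT29 libraries. It belongs with the fibroblast markers, of which 3 of 13 passed: COL1A1, LUM (30.2 ± 3.1 TPM in H441 and 0.559 ± 0.0786 in HT29) and ACTA2 (1.71 ± 0.433 TPM in H441 and 0.969 ± 0.256 in HT29). The defining fibroblast genes COL1A2, COL3A1, DCN, PDGFRA, PDGFRB and THY1 were at 0.0116, 0.010, 0.00473, 0, 0.0156 and 0.0458 TPM in H441, at or near 0. Of the 9 endothelial markers, KDR, a VEGF receptor, stood at 18.6 ± 0.59 TPM in H441 and was listed at 0 in HT29, with TEK at 1.67 ± 0.301 TPM, while CDH5, VWF and PECAM1 stayed below 1 TPM. Leukocyte markers were low in both lines: of 14, 9 passed, 5 were higher in H441 and 2 in HT29, among them CD3D (9.64 ± 1.71 TPM in H441 and 5.94 ± 1.35 in HT29), PTPRC (2.89 ± 0.389 TPM in H441 and 1.44 ± 0.318 in HT29) and CD14 (1.85 ± 0.40 TPM in H441 and 5.36 ± 1.23 in HT29). The part of these markers in other results was not tested.

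Integrins and laminins divided, with 12 of the 21 that passed higher in H441 and 9 in HT29, against 49.6% and 27.9% of all tested genes. LAMB3, a laminin chain of epithelial basement membrane, differed by 1.84 ± 0.12. ITGA5, the fibronectin receptor chain, stood at 16, 15.6 and 16.8 TPM in the H441 libraries and 0.0521, 0.197 and 0.0859 in the HT29 libraries. ITGA6, a laminin receptor chain, stood at 119.6, 119 and 102 TPM in the HT29 libraries and 10.9, 9.08 and 9.14 in the H441 libraries. H441 was thus higher in every library for the fibronectin receptor chain, and HT29 for the laminin receptor chain ITGA6 (-3.42 ± 0.10), as for LAMB1 (-4.88 ± 0.09).

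Growth factor signalling genes were largely higher in H441 in HPLM. Of 15 EGF receptor family genes and ligands, 11 passed, 9 were higher in H441 and LRIG1 alone in HT29, with a median of 1.53. AREG, amphiregulin, stood at 653, 579 and 614 TPM in the H441 libraries and 174, 176 and 158 in the HT29 libraries. ERRFI1, a feedback inhibitor of the receptor, stood at 2069.9, 1945 and 2046 TPM in the H441 libraries and 161, 157 and 146 in the HT29 libraries. EREG differed by 2.07 ± 0.10, HBEGF by 1.98 ± 0.12, TGFA by 1.59 ± 0.09 and EGFR itself by 1.26 ± 0.09. In RPMI-1640 EREG was alike in the lines (0.016) and HBEGF was lower in H441 (-0.82). Their interactions with the medium were 2.05 and 2.80 (limma adjusted p = 0.000208 and 0.000305). ERBB3 overlapped between lines (-0.07 ± 0.09), although TMM scaling called it higher in HT29 (-0.44, limma adjusted p = 0.000237). Of 20 immediate targets and feedback regulators of ERK, 18 were higher in H441 and ETV4 (-1.17 ± 0.09) and DUSP4 (-1.70 ± 0.10) in HT29, with a median of 1.07. Of the 18, EGR1 (-0.90), SPRY4 (-0.80) and SPRED1 (-0.20) had the opposite sign in RPMI-1640. FOSL1, an AP-1 subunit, stood at 500.3, 469.9 and 519.6 TPM in the H441 libraries and 68, 65 and 66.2 in the HT29 libraries. DUSP6, a phosphatase that switches ERK off, averaged 175 ± 5.35 TPM in H441 and 58.4 ± 2.27 in HT29, and the receptor EPHA4 8.85 ± 0.568 TPM in H441 and 0.026 ± 0.0229 in HT29.

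Interferon-stimulated genes stood higher in HT29 almost without exception. Of 35 listed, 34 passed, 33 were higher in HT29 and none in H441, with a median of −2.14. IFI6 (ENSG00000126709, chromosome 1, 27666061 to 27672218), a mitochondrial antiviral protein, stood at 1685, 1574 and 1429 TPM in the HT29 libraries and 33.9, 28.1 and 28.5 in the H441 libraries. ISG15, a ubiquitin-like modifier, stood at 832, 732 and 717 TPM in the HT29 libraries and 72, 77.8 and 83.6 in the H441 libraries. IFI27 stood at 414, 381 and 364 TPM in the HT29 libraries and 1.89, 0.951 and 1.15 in the H441 libraries. In each the lines were fully separated, with differences of -5.65 ± 0.10, -3.27 ± 0.09 and -7.40 ± 0.15. OAS2 (-5.42 ± 0.14), MX1 (-4.68 ± 0.13) and IFIT1 (-4.65 ± 0.08) act against viral RNA, and IRF7 (-2.76 ± 0.09) and IRF9 (-1.69 ± 0.10) transmit the signal. GBP2 was equal in both, at 6.0 ± 0.523 TPM in H441 and 5.96 ± 0.774 in HT29, and its sign turned with TMM scaling. In RPMI-1640 the list's median was −1.94.

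Antigen presentation divided by class. Of 19 class I genes, 16 were higher in HT29 and 3 in H441, with a median of −1.51. B2M, the light chain of class I, stood at 1135, 1130.0 and 1017 TPM in the HT29 libraries and 330.5, 311 and 324 in the H441 libraries. HLA-B differed by -1.95 ± 0.09 and HLA-C by -1.95 ± 0.10, alleles of which align unevenly to a reference, and the peptide pump TAP1 by -1.98 ± 0.09 and the immunoproteasome subunit PSMB9 by -2.08 ± 0.11. CALR, a chaperone of the endoplasmic reticulum counted in this list, was higher in H441 (1.82 ± 0.09). ERAP1, which trims peptides, was called higher in H441 as tested (0.23 ± 0.08) and was of opposite sign with TMM scaling (-0.13). Of 15 class II genes, 11 passed, 8 were higher in H441 and none in HT29. CD74, the invariant chain, stood at 57.1, 52.2 and 58.6 TPM in the H441 libraries and 9.92, 11.1 and 7.67 in the HT29 libraries. HLA-DMB differed by 2.16 ± 0.08, while the class II master regulator CIITA was below the filter in both lines (0.855 and 0.287 TPM). Type II alveolar cells are known for constitutive class II expression. Leukocyte markers such as CD79A were also present at low levels (3.87 ± 0.736 TPM in H441 and 2.11 ± 0.567 in HT29). Whether either bears on these values was not tested.

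Serine and amino acid handling was split enzyme by enzyme. PHGDH (ENSG00000092621, chromosome 1, 119648411 to 119744226), which opens the serine synthesis pathway, stood at 35.3, 30.8 and 30.0 TPM in the HT29 libraries and 1.21, 1.05 and 0.877 in the H441 libraries. H441 was at about 1 TPM in each library (-4.01 ± 0.10, limma adjusted p = 1.66e-07). PSAT1, the next enzyme, stood at 429, 409.6 and 366 TPM in the HT29 libraries and 387, 353 and 373 in the H441 libraries, overlapping (limma adjusted p = 0.268), although TMM scaling called it higher in HT29 (-0.49). PSPH, the last enzyme, did not pass and turned sign with TMM scaling (0.15 and -0.22). MTHFD1, a cytosolic folate enzyme, differed by 2.45 ± 0.09, and MTHFD2, its mitochondrial counterpart, by 1.12 ± 0.09, both higher in H441. Of the 20 serine and folate genes, 16 passed, 9 higher in H441 and 4 in HT29, with a median of 0.35 that fell to −0.02 with TMM scaling.

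ASS1, which joins citrulline to aspartate to rebuild arginine, stood at 90.2, 83.6 and 77.3 TPM in the HT29 libraries and 9.76, 9.55 and 11.1 in the H441 libraries. CTH and CBS, which turn homocysteine into cysteine, were both higher in H441: CTH at 208, 191 and 215 TPM in the H441 libraries and 16.2, 16.5 and 14.4 in the HT29 libraries, and CBS at 7.01, 8.65 and 8.02 TPM in the H441 libraries and 0.0194, 0 and 0.016 in the HT29 libraries. HT29 was higher in every library for ASS1, and H441 for CTH and CBS. Amino acid transporters went both ways, 12 of 22 higher in H441 and 8 in HT29, against 49.6% and 27.9% of all tested genes. SLC7A11, the cystine importer, averaged 225 ± 11.1 TPM in H441 and 40.0 ± 3.56 in HT29, and SLC7A5, the importer of large neutral amino acids, 697 ± 32.4 TPM in H441 and 229 ± 23.1 in HT29. HT29 was higher for SLC6A8, the creatine carrier (-4.84 ± 0.12), SLC43A1 (-4.55 ± 0.13), SLC6A20 (-2.997 ± 0.08) and the glutamine carrier SLC1A5 (-0.45 ± 0.09).

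Of 42 ATF4 targets and regulators, 40 passed, 24 higher in H441 and 11 in HT29, with a median of 0.67. With TMM scaling the counts were 22 and 16 and the median 0.30. ASNS, asparagine synthetase, stood at 1141, 1070.1 and 1133 TPM in the H441 libraries and 237, 218 and 205 in the HT29 libraries. DDIT3, the stress factor CHOP, stood at 1055, 1007 and 1049.8 TPM in the H441 libraries and 217, 219 and 202 in the HT29 libraries. DDIT4, an inhibitor of mTORC1, stood at 482, 482 and 528 TPM in the H441 libraries and 48.1, 44 and 37.5 in the HT29 libraries. H441 was higher in every library, with differences of 2.34 ± 0.08, 2.28 ± 0.07 and 3.50 ± 0.11. TRIB3, a feedback inhibitor induced by ATF4 and CHOP, was higher in HT29, at 256 ± 24.7 TPM in HT29 and 129.8 ± 3.68 in H441, and so were ATF4 itself (-0.31 ± 0.07), CEBPB (-0.80 ± 0.08), GDF15 (-0.95 ± 0.09), ATF5 (-2.07 ± 0.11) and FGF19 (-5.43 ± 0.10). CHAC1, which degrades glutathione, was higher in H441 (1.08 ± 0.08).

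The unfolded protein response list stood higher in H441, 20 of 24 genes against 3, with a median of 1.70 (1.33 with TMM scaling). HSPA5, the chaperone BiP, stood at 4261, 4049.8 and 4220.4 TPM in the H441 libraries and 812, 778 and 692 in the HT29 libraries. HERPUD1, of the degradation machinery, stood at 398, 383 and 409 TPM in the H441 libraries and 71.4, 64.7 and 60.1 in the HT29 libraries. DNAJB9, a co-chaperone, averaged 162 ± 8.0 TPM in H441 and 34 ± 4.72 in HT29. The lines did not overlap in any of these, and HSPA5 was among the 10 most abundant nuclear-encoded transcripts of H441. XBP1, whose splicing drives one branch, was equal at 313 ± 10.1 TPM in H441 and 315 ± 27.2 in HT29. ERN2 (-3.90 ± 0.07), the sensor found in mucous epithelium, and CREB3L1 (-3.15 ± 0.09) were higher in HT29. Of 20 heat shock and chaperone genes, which include the mitochondrial chaperonins HSPD1 and HSPE1, 18 passed, 15 higher in H441 and 3 in HT29, with a median of 1.06: HSPA6 differed by 4.82 ± 0.10, DNAJB1 by 2.69 ± 0.10 and HSPB1 by 2.61 ± 0.07. HSPD1 was higher in H441 as tested (0.29 ± 0.09) and of opposite sign with TMM scaling (-0.09).

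Of 42 NRF2 and glutathione genes, 38 passed, 23 higher in H441 and 14 in HT29. HMOX1 (ENSG00000100292, chromosome 22, 35380361 to 35394214), heme oxygenase, stood at 572, 554 and 591 TPM in the H441 libraries and 3.45, 4.47 and 3.79 in the HT29 libraries. TXNRD1, thioredoxin reductase, stood at 889, 829 and 869.8 TPM in the H441 libraries and 164, 167 and 137 in the HT29 libraries. AKR1B1, aldose reductase, differed by 6.36 ± 0.06. GPX2, the glutathione peroxidase of the gut, stood at 831, 754 and 699 TPM in the HT29 libraries and 4.27, 3.04 and 2.8 in the H441 libraries, and it had the reverse pattern (-7.46 ± 0.14). HT29 was also higher for AKR1B10 (-2.13 ± 0.12) and for AKR1C1 (-2.12 ± 0.08), AKR1C2 (-1.42 ± 0.12) and AKR1C3 (-2.32 ± 0.09), aldo-keto reductases similar enough to share reads. PGD (-0.59 ± 0.10) and TALDO1 (-0.82 ± 0.08) of the pentose phosphate pathway were higher in HT29, and TKT in H441 (1.05 ± 0.09).

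Of 43 phase 2, alcohol and aldehyde enzymes, 31 passed, 14 higher in H441 and 12 in HT29, with a median of 0.16 (−0.21 with TMM scaling), and of the 17 at 1 TPM or more in all 6 libraries 11 and 3. HT29 was higher for the cytochrome CYP3A5 (99.8 ± 3.04 TPM in HT29 and 0.727 ± 0.18 in H441), for CYP2S1 (-6.01 ± 0.08) and for UGT1A10 (-4.43 ± 0.11), 1 of a family that shares exons and so reads. H441 was higher for CYP1B1 (2.68 ± 0.10), ALDH1B1 (2.10 ± 0.07) and SULT1E1 (2.55 ± 0.09). Among 21 iron and metallothionein genes, 14 passed, 11 higher in H441 and 2 in HT29. MT2A, a metal-binding protein, stood at 307, 305 and 313 TPM in the H441 libraries and 29.5, 27.2 and 26.6 in the HT29 libraries, while MT1E stood at 14.1, 16.9 and 14.2 TPM in the H441 libraries and 94, 87.2 and 84.4 in the HT29 libraries. The lines were separated in opposite directions for these metallothioneins, which are close copies. FTL, ferritin light chain, was higher in HT29 (-0.79 ± 0.08) and TFRC, the transferrin receptor, in H441 (2.22 ± 0.11).

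Glycolytic genes were mostly higher in H441, 21 of the 32 that passed against 7, with a median of 0.75 (background 0.297). ENO1, enolase, stood at 3154, 3043 and 3226 TPM in the H441 libraries and 684, 641 and 531 in the HT29 libraries. HK2, the inducible hexokinase, stood at 209, 197 and 206 TPM in the H441 libraries and 25.4, 25 and 23.5 in the HT29 libraries. PFKFB3, which sets the pace of phosphofructokinase, differed by 3.17 ± 0.07, and SLC2A3, a high-affinity glucose carrier, by 4.03 ± 0.06. HT29 was higher for HKDC1, a hexokinase-like protein (-3.02 ± 0.07), and for SLC16A1, a lactate carrier (-2.002 ± 0.08). SLC2A1, LDHB and GPI did not pass and turned sign with TMM scaling. TXNIP, a glucose-induced inhibitor of glucose uptake, was low in both lines at 49.4 ± 1.78 TPM in H441 and 36.7 ± 2.65 in HT29. It was called higher in H441 (0.42 ± 0.08, limma adjusted p = 0.00245), a call lost with TMM scaling (0.05).

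Among 22 hypoxia genes, 15 were higher in H441 and 5 in HT29, with a median of 1.17. HIF1A, the oxygen-regulated factor, stood at 939, 872 and 906 TPM in the H441 libraries and 32.7, 32.9 and 27.9 in the HT29 libraries. BNIP3, which targets mitochondria for removal, stood at 121, 112 and 126 TPM in the H441 libraries and 2.32, 2.44 and 2.43 in the HT29 libraries. CA12, a surface carbonic anhydrase, stood at 74.7, 75.7 and 62.9 TPM in the HT29 libraries and 0.198, 0.104 and 0.025 in the H441 libraries. The 2 former were higher in every H441 library and CA12 in every HT29 library, as was CA9 (-2.29 ± 0.09). VEGFA was alike at 135 ± 3.75 TPM in H441 and 123 ± 1.74 in HT29 (limma adjusted p = 0.0874), and its sign turned with TMM scaling.

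Sterol genes, a list of synthesis genes that also holds storage and export genes, were higher in H441 in 24 of the 30 that passed. In HT29 3 were higher, and the median was 1.10. MSMO1 (ENSG00000052802, chromosome 4, 165327623 to 165343160), of the late pathway, stood at 159, 147 and 156 TPM in the H441 libraries and 23.3, 22.7 and 22.2 in the HT29 libraries. Its lines did not overlap, with a difference of 2.71 ± 0.07. SOAT1, which esterifies cholesterol for storage, differed by 3.81 ± 0.12, and HMGCS1, of the early pathway, by 1.18 ± 0.09. ABCG1, a cholesterol exporter and not a gene of synthesis, was higher in HT29, at 26.4, 26.1 and 23.6 TPM in the HT29 libraries and 0.101, 0.198 and 0.0597 in the H441 libraries. SQLE, NSDHL and ABCA1 did not pass and turned sign with TMM scaling. Fatty acid genes were placed near the shares of all tested genes (49.6% and 27.9%), 16 of 30 higher in H441 and 8 in HT29. Their median was 0.23 (−0.11 with TMM scaling). FADS1, a desaturase of polyunsaturated fatty acids, stood at 29.5, 28.4 and 29.1 TPM in the H441 libraries and 0.309, 0.307 and 0.53 in the HT29 libraries, and SCD, which makes monounsaturated ones, at 51.9, 51 and 49.8 TPM in the H441 libraries and 182, 182 and 155 in the HT29 libraries. The lines were thus opposite in these desaturases, with ELOVL5 (4.24 ± 0.08) and PLIN2 (4.07 ± 0.11) on the side of H441 and FABP5 (-4.08 ± 0.08) and ACSL5 (-2.18 ± 0.08) on that of HT29.

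The series title concerns lipid nanoparticles, which cells take up by endocytosis. Of 40 caveolar and endocytic genes, 38 passed, 27 higher in H441 and 5 in HT29, with a median of 1.01. CAV1 (ENSG00000105974, chromosome 7, 116524785 to 116561184), the coat protein of caveolae, stood at 407, 378 and 412 TPM in the H441 libraries and 2.77, 2.75 and 2.82 in the HT29 libraries. CLTC, the clathrin heavy chain, stood at 216, 196 and 199 TPM in the H441 libraries and 107, 108 and 88 in the HT29 libraries. HT29 was higher for DNM1, a dynamin (41.2 ± 1.09 TPM in HT29 and 0.249 ± 0.0409 in H441), and for DAB2, a clathrin adaptor listed at 0 TPM in H441 and at 12.1 ± 0.861 TPM in HT29. H441 was thus higher for both coat proteins, by 6.73 ± 0.07 for caveolin and 1.01 ± 0.10 for clathrin. CAVIN1, RAC1, DNM2 and AP2A1 turned sign with TMM scaling. Of 25 lipoprotein receptors and ligands, 15 passed, 7 higher in H441 and 5 in HT29: LRP6 (2.30 ± 0.08) and LRP10 (1.53 ± 0.11) in H441, and SORT1 (-4.51 ± 0.10), LRP8 (-1.58 ± 0.06), SCARB1 (-1.04 ± 0.09) and APOE (-1.26 ± 0.14) in HT29.

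Of 42 proteases and inhibitors, 35 passed, 17 higher in H441 and 14 in HT29, with a median of 0.24 (−0.13 with TMM scaling). H441 carried PLAU, the urokinase that activates plasminogen, at 804, 762 and 806 TPM in the H441 libraries and 3.21, 3.19 and 3.09 in the HT29 libraries. MMP9, a gelatinase, stood at 63.4, 65.1 and 68.2 TPM in the H441 libraries and 0, 0 and 0.0929 in the HT29 libraries. MMP14, a membrane collagenase, differed by 5.30 ± 0.12 and PLAT by 5.98 ± 0.07. HT29 carried KLK6, a kallikrein, at 637, 590.1 and 525 TPM in the HT29 libraries and 4.08, 3.84 and 3.33 in the H441 libraries, and MMP7, matrilysin, a known Wnt target, at 355, 333 and 282 TPM in the HT29 libraries and 6.5, 6.21 and 5.66 in the H441 libraries. No library of the other line approached these levels. KLK10 (-6.26 ± 0.13), KLK11 (-5.50 ± 0.13) and SERPINE2 (-4.13 ± 0.08) were on the same side.

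Of 29 ion and water transport genes, 21 passed, 9 higher in H441 and 10 in HT29, and of the 13 at 1 TPM or more in all 6 libraries 6 and 5. CFTR, the chloride channel of cystic fibrosis, stood at 25.2, 27 and 24 TPM in the HT29 libraries and 0.316, 0.142 and 0.193 in the H441 libraries. ANO1, a calcium-gated chloride channel, stood at 113, 106 and 95.6 TPM in the HT29 libraries and 0.309, 0.126 and 0.121 in the H441 libraries. KCNE3 and KCNQ1, subunits of the basolateral potassium channel of colonic crypts, differed by -6.11 ± 0.15 and -5.21 ± 0.09. The 3 HT29 libraries were well above H441 in all of these. SCNN1A, of the epithelial sodium channel that clears alveolar fluid, stood at 247, 242 and 265 TPM in the H441 libraries and 78.1, 73.1 and 66.7 in the HT29 libraries, and SCNN1B at 5.33, 6.47 and 6.53 TPM in the H441 libraries and 0.0336, 0 and 0.0277 in the HT29 libraries. AQP4 was listed at 0 TPM in HT29 and stood at 6.76 ± 0.622 TPM in H441, whereas AQP5, a water channel of type I alveolar cells, was higher in HT29 (-4.28 ± 0.10).

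Among 30 cytokine and NF-kB genes, 22 passed, 12 higher in H441 and 5 in HT29, close to the 49.6% and 27.9% of all tested genes. ICAM1, an adhesion molecule, stood at 237, 234 and 250.2 TPM in the H441 libraries and 12.5, 14.3 and 10.1 in the HT29 libraries, and CXCL8, a neutrophil attractant, differed by 3.05 ± 0.10. IL6 and CCL2 were listed at 0 TPM in HT29 and stood at 5.96 ± 0.479 TPM and 3.13 ± 0.082 TPM in H441. LCN2, an iron-trapping defence protein, was higher in HT29 (-1.59 ± 0.06), as was the decoy ligand IL1RN (-4.31 ± 0.10). Of 28 cornified envelope, S100 and annexin genes, 21 passed, 12 higher in H441 and 5 in HT29, again near those shares. SPRR2D (4.94 ± 0.11), IVL (4.29 ± 0.12) and S100A2 (4.24 ± 0.06), genes of squamous epithelium, were higher in H441, and ANXA10 (-5.51 ± 0.08) and ANXA13 (-3.29 ± 0.12) in HT29.

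Cell cycle genes were higher in H441 in 34 of 38 and in HT29 in 3, with a median of 1.45. BUB1, a checkpoint kinase, stood at 93.4, 86.3 and 91.3 TPM in the H441 libraries and 10.4, 9.81 and 8.85 in the HT29 libraries. TOP2A, which untangles DNA before division, stood at 424, 387 and 409 TPM in the H441 libraries and 66.1, 63.2 and 51.6 in the HT29 libraries. The lines were separated in both, by 3.10 ± 0.08 and 2.74 ± 0.11. PCNA, the replication clamp, was the reverse, at 247 ± 15.2 TPM in HT29 and 123 ± 9.26 in H441, and the inhibitors CDKN2A (-0.98 ± 0.09) and CDKN2B (-1.36 ± 0.10) were higher in HT29. CDKN1A, p21, was higher in H441 (2.64 ± 0.11). TYMS was higher in H441 as tested (0.17 ± 0.06) and of opposite sign with TMM scaling (-0.20).

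All 13 mitochondrially encoded mRNAs were higher in HT29, with a median of −0.97. MT-CYB, a subunit of complex III, stood at 17930.2, 20086 and 23051 TPM in the HT29 libraries and 4351, 5479 and 4427 in the H441 libraries. It had the widest gap of the 13, -2.10 ± 0.13, and MT-CO1, of complex IV, the narrowest, -0.56 ± 0.15. Nuclear-encoded respiratory subunits were split, 12 of 33 higher in H441 and 12 in HT29, where 49.6% and 27.9% of all tested genes were. Their median of 0.01 was below the 0.297 of all genes (−0.36 against −0.0443 with TMM scaling). Ribosomal protein genes were lower in H441 as a list, 22 of 38 higher in HT29 and 6 in H441, with a median of −0.37. RPLP1 (-1.62 ± 0.07) and RPS6 (-1.49 ± 0.08) were among those higher in HT29, and RPL3 (0.82 ± 0.09) was higher in H441. RPS2 and RPS3A overlapped between lines and turned sign with TMM scaling, from 0.16 to -0.22 and from 0.17 to -0.21. Ribosomal protein genes have many processed copies in the genome that can share their reads.

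TMSB10, FTL, EEF1A1, RPS18 and RPS2 were the 5 nuclear-encoded transcripts among the 10 most abundant of both lines. TMSB10, which binds actin monomers, was first in each, at 9097 ± 264 TPM in H441 and 11310.0 ± 455 in HT29. ACTG1, cytoplasmic actin, was second in H441 at 8949 ± 354 TPM and stood at 2666 ± 223 TPM in HT29 (1.75 ± 0.09). RPL13A (-1.08 ± 0.09) and RPS12 (-1.12 ± 0.07) were among those that ranked in HT29 and not in H441. EEF1A1, the elongation factor, was not called (limma adjusted p = 0.205), but TMM scaling called it higher in HT29 (-0.53).

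The medium was then asked about directly. Of genes called in HPLM, 89.36% had the same sign of line difference in RPMI-1640, and 96.79% of those called at 2-fold or more. Across genes, which are not independent replicates, the line differences in both media had a Pearson correlation of 0.907, and each medium had its own libraries. An interaction term over all 12 libraries asked whether H441 minus HT29 was larger in HPLM than in RPMI-1640. It called 2196 of 19212 genes (11.4%) as larger in HPLM and 577 (3.0%) as smaller. HT29 library 1 in RPMI-1640 stood apart from the other 2, with 19.29% mitochondrial TPM against 30.23% and 28.83%. Without it the counts were 4924 of 19045 (25.9%) and 1927 (10.1%), and every interaction of a named gene given below as past the threshold was past it there too. With TMM scaling they were 1462 and 1127, and without mitochondrially encoded genes 1165 and 1178. They were 1384, 1337 and 1382 larger without H441 HPLM library 1, H441 HPLM library 3 and HT29 HPLM library 3, and 375, 329, 327 and 350 smaller without H441 HPLM library 1 and HT29 HPLM libraries 1, 2 and 3. The interaction took 1 variance per gene for all groups, and its median over all genes was 0.2071 (0.008469 with TMM scaling).

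Lists of tissue identity genes kept the sign of their median in both media, while the interaction called some single members. The lung list had a median of 3.62 in HPLM and 3.53 in RPMI-1640, the HOX list −4.11 and −4.02, and the intestinal list −2.06 and −2.62, with no test of these differences. The interaction called 3 of 20 lung genes, 4 of 27 HOX genes and 5 of 19 intestinal genes as larger in HPLM (11.4% of all genes). It called 1, 2 and 0 as smaller (3.0% of all genes). Without HT29 RPMI library 1 these were 6, 11 and 12 larger (25.9% of all genes) and 4, 4 and 0 smaller (10.1%). With TMM scaling they were 2, 3 and 6 larger and 5, 2 and 0 smaller. Named genes past the threshold were SFTPB, SFTA3, GPA33, CDH17, SOX2, HOXA9, HOXA11, HOXA13, HOXB4, HOXC8 and HOXD1, besides KRT7 and AGR3, and with a pseudocount of 0.1 the call was lost for the 6 HOX genes, SFTA3, SOX2 and AGR3. NKX2-1 stood at 174 ± 0.109 TPM in H441 and 0.481 ± 0.32 in HT29 in RPMI-1640, an interaction of 0.27 ± 0.19 (limma adjusted p = 0.384). The H441 libraries averaged 1452 ± 24.7 TPM of SFTPA1 in RPMI-1640 and 447 TPM in HPLM, with an interaction of -1.09 ± 0.39 (limma adjusted p = 0.0952), and of −1.39 without HT29 RPMI library 1 (limma adjusted p = 0.00677). SFTPB stood at 2.08 ± 0.464 TPM there, below its HPLM level (1.15 ± 0.16, limma adjusted p = 0.00154). KRT7 averaged 983 TPM in RPMI-1640 and 2012 TPM in HPLM in H441 (1.68 ± 0.19, limma adjusted p = 0.000627).

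Several stress and nutrient lists had medians of opposite sign in the media. Their RPMI-1640 medians are given without rescaling and without a median over all genes, and some were close to 0. They include HT29 library 1. Interaction counts of lists are read against 11.4% larger and 3.0% smaller of all genes (25.9% and 10.1% without HT29 RPMI library 1). Counts over all genes with TMM scaling and without mitochondrially encoded genes are given above. The unfolded protein response list had a median of 1.70 in HPLM and −0.13 in RPMI-1640, and 17 of 24 genes had a larger H441 excess in HPLM and none a smaller one (20 without HT29 RPMI library 1, and 13 each with TMM scaling and without mitochondrially encoded genes). HSPA5 stood at 905 ± 39.9 TPM in H441 and 1244 ± 363 in HT29 in RPMI-1640. So the order of the lines was opposite in the media: 2.46 in HPLM and -0.41 in RPMI-1640, an interaction of 2.87 ± 0.27 (limma adjusted p = 0.000241). HERPUD1 gave 2.46 ± 0.63 (limma adjusted p = 0.0281), a call lost with TMM scaling (limma adjusted p = 0.0696), without mitochondrially encoded genes (limma adjusted p = 0.0778) and without any 1 of the HPLM libraries (limma adjusted p from 0.0519 to 0.071). In all, 9 members of the list were above 0 in HPLM and below 0 in RPMI-1640. Of all genes called in HPLM, 89.36% had the same sign in both media, and the share of all tested genes that crossed this way was not counted. Such crossings were taken without rescaling, where the median interaction over all genes was 0.2071.

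The ATF4 list had a median of 0.67 in HPLM and −0.72 in RPMI-1640. In it, 15 members were above 0 in HPLM and below 0 in RPMI-1640, again without rescaling and without a matching share over all tested genes. The interaction called 18 of 41 as larger in HPLM and none as smaller, against 11.4% and 3.0% of all genes. This count rested on the library and the scaling: it was 40 without HT29 RPMI library 1 (25.9% of all genes), 6 with TMM scaling and 5 without mitochondrially encoded genes. CTH gave 1.97 ± 0.51 (limma adjusted p = 0.0292), a call lost with TMM scaling (limma adjusted p = 0.0826), without mitochondrially encoded genes (limma adjusted p = 0.0936) and without any 1 of the HPLM libraries (limma adjusted p from 0.0551 to 0.0737). SLC7A11 gave 1.63 ± 0.23 (limma adjusted p = 0.00154). DDIT3 stood at 111 ± 2.28 TPM in H441 and 165 ± 109 in HT29 in RPMI-1640, an interaction of 2.49 ± 0.75 that missed the threshold (limma adjusted p = 0.0507), as did ASNS (1.45 ± 0.96, limma adjusted p = 0.368) and TRIB3 (1.48 ± 0.78, limma adjusted p = 0.248). Without HT29 RPMI library 1 all 3 passed, at 3.32 for DDIT3, 2.53 for ASNS and 2.35 for TRIB3 (limma adjusted p = 1.34e-07, 1.12e-06 and 2.85e-06). Amino acid transporters went from −0.52 in RPMI-1640 to 0.56 in HPLM, with 10 called larger and none smaller, and 7 and 1 with TMM scaling.

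Heat shock genes had a median of 1.06 in HPLM and −0.18 in RPMI-1640, with 9 of 18 called larger in HPLM and none smaller (7 with TMM scaling). Of all genes, 11.4% were called larger and 3.0% smaller. HSPA1A, the inducible HSP70, which is near-identical to HSPA1B, stood at 188, 201 and 204 TPM in the H441 libraries and 75.5, 72.5 and 70.9 in the HT29 libraries in HPLM. In RPMI-1640 it stood at 27.4 ± 3.16 TPM in H441 and 155 ± 10.7 in HT29, the reverse order (3.89 ± 0.15, limma adjusted p = 1.05e-06). Cholesterol genes had medians of 1.10 and −0.06, with 12 of 30 larger and none smaller (11 and 1 with TMM scaling). STARD4, a sterol carrier, stood at 20.9 ± 0.905 TPM in H441 and 41.4 ± 2.55 in HT29 in RPMI-1640, and at 20.9 ± 0.788 TPM and 2.88 ± 0.16 TPM in HPLM. Its H441 level was thus alike in both media and its HT29 level was not (3.45 ± 0.13, limma adjusted p = 1.05e-06).

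**Figure D4:**
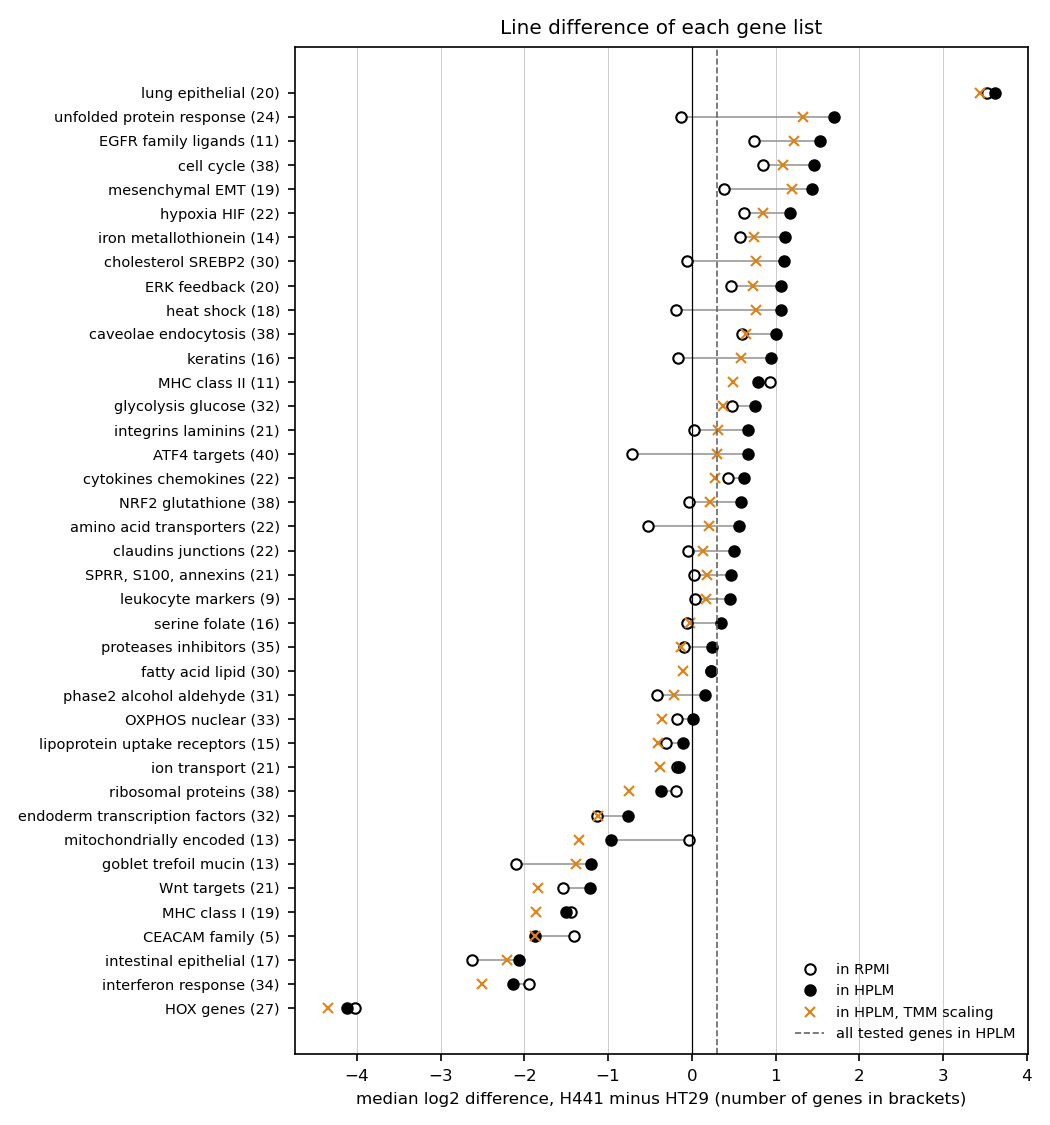
Median line difference (log2, H441 minus HT29) of each gene list with at least 5 genes past the filter, in HPLM (filled), in RPMI-1640 (open) and in HPLM with TMM scaling (crosses), with the number of genes in brackets and a dashed line at 0.297, the median of all tested genes in HPLM. The unfolded protein response, heat shock, cholesterol and ATF4 lists lie to the right of 0 in HPLM and to the left of it in RPMI-1640, while the HOX, interferon and lung lists have medians of the same sign in both media.

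NRF2 and glutathione genes had medians of 0.59 and −0.03, with 18 of 39 called larger in HPLM and none smaller (16 and 1 with TMM scaling). The shares of all genes were 11.4% and 3.0%. HMOX1 had the largest interaction of all genes that met the naming rule: it stood at 38.5 ± 2.23 TPM in H441 and 14.8 ± 7.59 in HT29 in RPMI-1640, against 572 and 3.9 TPM in HPLM (5.41 ± 0.46, limma adjusted p = 0.000131). AKR1B10 was higher in HT29 in both media but by less in HPLM, with 1339 ± 407 TPM in HT29 in RPMI-1640 against 33.1 ± 3.27 in HPLM (4.60 ± 0.33, limma adjusted p = 6.39e-05). TFF1, a trefoil peptide, stood at 32.5 ± 25.5 TPM in HT29 in RPMI-1640 and 2.19 ± 1.13 in HPLM (3.49 ± 0.65, limma adjusted p = 0.00686).

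In the other direction, RARRES1, RGCC, MIR4482, VGLL1 and RAMP1 had the 5 lowest interactions. RARRES1, a retinoid-responsive protease inhibitor, was near 0 in H441 in both media and stood at 3.79 ± 0.991 TPM in HT29 in RPMI-1640 and 39.5 ± 1.22 in HPLM (-3.15 ± 0.20, limma adjusted p = 3.42e-05). RAMP1, a partner of the calcitonin-like receptor, stood at 1.47 ± 0.448 TPM and 13.3 ± 3.27 TPM in HT29 and was close in H441, at 45.7 ± 2.69 TPM and 39.6 ± 1.12 TPM. All 5 shared that shape, low in HT29 in RPMI-1640 and above it in HPLM. MIR4482 is a microRNA gene in a poly(A) library, where reads of an overlapping transcript cannot be set apart, and its call was lost with a pseudocount of 0.1 and without any 1 of the HPLM libraries. Mitochondrially encoded mRNAs had a median of −0.97 in HPLM and −0.04 in RPMI-1640, with 9 of 13 called smaller in HPLM with both scalings (3.0% of all genes as tested).

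TXNIP had a lower mean in HPLM than in RPMI-1640 in both lines, a difference within a line that was not tested. It stood at 1195 ± 52.2 TPM in H441 and 677 ± 328 in HT29 in RPMI-1640, and at 49.4 and 36.7 TPM in HPLM, and its interaction was -0.55 ± 0.47 (limma adjusted p = 0.488). AREG was 271 TPM in H441 and 397 in HT29 in RPMI-1640, an order opposite to that in HPLM (2.37 ± 0.24, limma adjusted p = 0.000357).

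**Figure D5:**
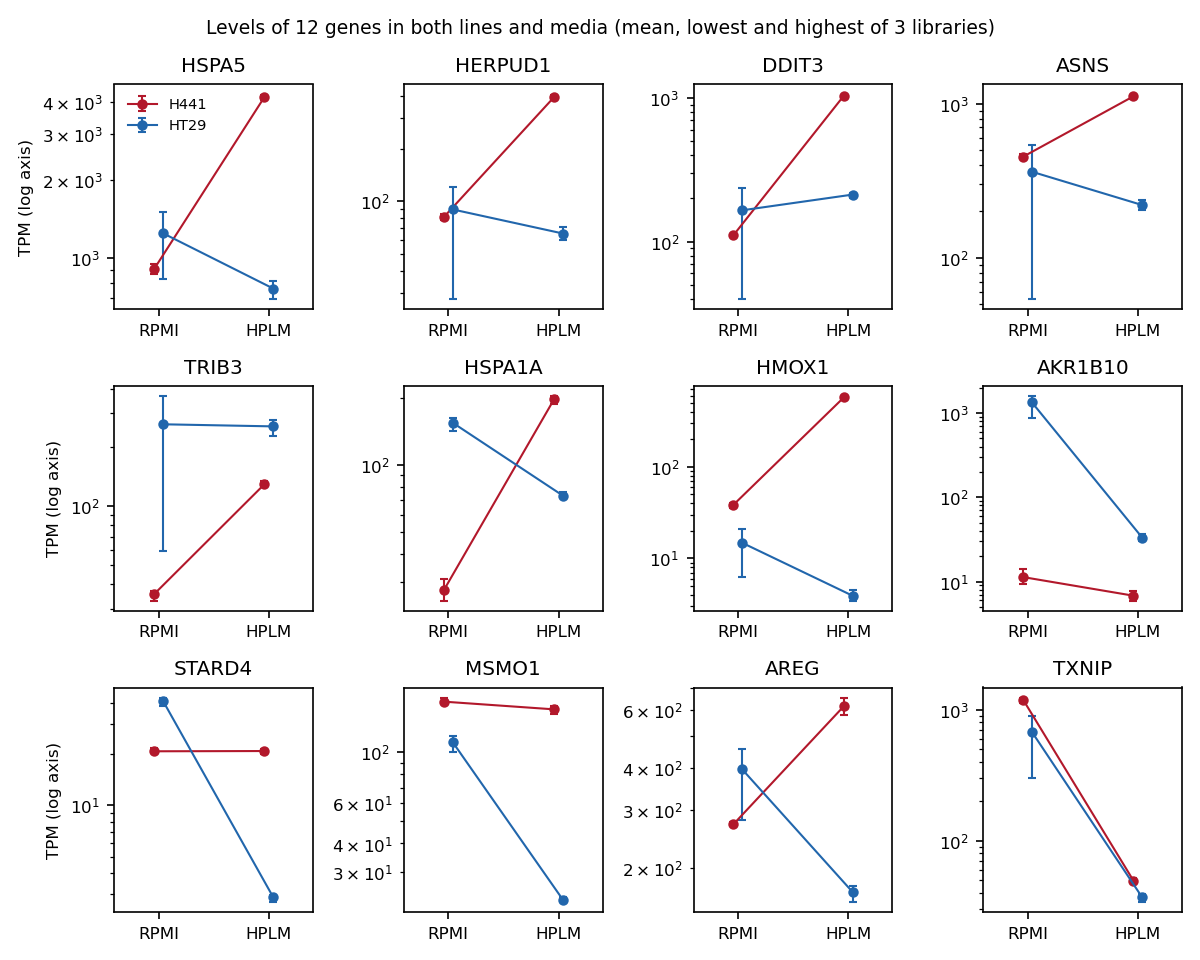
TPM (log axis) of 12 genes in RPMI-1640 and HPLM, H441 in red and HT29 in blue, with points at the mean and bars from the lowest to the highest of 3 libraries. The means of the lines cross between media for HSPA5, HERPUD1, DDIT3, HSPA1A, STARD4 and AREG, run apart for HMOX1, and fall together for TXNIP.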

How the data were processed

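The values are TPM of 58051 gene identifiers per library, deposited by the authors in 1 table per line, each library with the same sum. The authors also deposited a signal per gene and library, a read count divided by a size factor, for 15405 genes in H441 and 16126 in HT29. Whole reads were recovered from it as a count (100% of values within 0.01 of a whole read in all 12 libraries), and the 13960 genes in both tables served the count tests. The build was GRCh38 and the tools were STAR 2.5.2b, Trimmomatic 0.36, Subread 1.5.2 and DESeq2, per the submitters' processing notes. The settings, the annotation and the DESeq2 version were not given in the sources used here. A GRCh38 annotation gave symbols to 57447 identifiers.

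The 6 HPLM libraries were fitted on log2(TPM + 1) with limma 3.58.1 (R 4.3.3, plain lmFit and eBayes), with two-sided tests and Benjamini-Hochberg adjustment. The interaction used all 12 libraries and genes with at least 1 TPM in at least 3 of them. Alternatives were TMM scaling (edgeR 4.0.16), median centring, removal of mitochondrially encoded genes, pseudocounts of 0.1 and 5, other TPM filters, limma with trend and robust options, edgeR and DESeq2 1.42.0 on recovered reads, a replicate block, and each library left out in turn. In data simulated over 17738 genes, 200 genes drawn from those well above the filter were changed, with independent noise and no shift in scale. There limma recovered 76% at a 1.5-fold and 96% at a 2-fold change and called 0.0855% of unchanged genes. As 77.5% of genes were called in the real comparison, where scaling shifted too, these rates do not carry over to it or to genes with low TPM.

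The genes compared and all 42 gene lists were chosen with earlier results of these data known. Lists are described by counts and medians, with no set test. Named genes were the 15 with the largest difference in each direction (called, no overlap, at least 20 TPM in the higher line), the 2 members of each list called with the smallest adjusted p in each direction, a fixed set, the HOX genes, the 10 most abundant per line and the 5 largest and 5 smallest interactions (at least 5 TPM over all libraries, with small RNA pseudogenes left out after 1 was seen). Other list members were named after their values were seen, and some genes that met these rules are not reported here. Same-numbered libraries of the lines did not deviate together (correlations −0.0305, −0.00208 and −0.0134), so they were not taken as pairs.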

Additional observations from a re-analysis of the deposited data

Results flagged for a closer look

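Of 222 named genes tested, 64 had a line difference that depended on the medium by the interaction term (limma adjusted p from 1.05e-06 to 0.0485), 52 larger and 12 smaller in HPLM, as log2 of H441 minus HT29. Only genes named by the stated rules were counted. Other genes given above with values are outside this count, and the interaction called some of them too. Among these were HBEGF (2.80), SNAI2 (1.41) and TGFBI (-0.85), with limma adjusted p = 0.000305, 0.00129 and 0.0189. All 64 were also called without HT29 RPMI-1640 library 1 (highest limma adjusted p 0.0232), 60 with the replicate block, 54 with TMM scaling, 50 without mitochondrially encoded genes, 44 with a pseudocount of 0.1, 62 with one of 5, and 51 to 55 when an HPLM library was left out. With TMM scaling the call was lost for SFTA3, GPX2, ERRFI1, CTH, HERPUD1, HSPB1, CCL2, BNIP3, SLC7A5 and HOXA9. Without mitochondrially encoded genes it was lost for these 10 and for CBS and LCN2, and MT-CYB and MT-ND2 were not in that fit. With a pseudocount of 0.1 it was lost for SFTA3, TFPI2, GPX2, ALDH1A1, AGR3, SOX2, HOXD1, EPHA4, CBS, SLC2A3, CCL2, AQP4, ANXA10, SLC7A5, MIR4482, HOXA9, HOXA11, HOXA13, HOXB4 and HOXC8, with one of 5 for TGFB2 and CCL2, and with the replicate block for CCL2, AQP4, SLC7A5 and HOXA9. Leaving out some HPLM library ended it for ANXA10, AQP4, CCL2, CTH, EPHA4, HERPUD1, HOXA9, HOXD1, HSPB1, MIR4482, MT-CYB, SFTA3, SLC7A5 and TGFB2 (limma adjusted p up to 0.109).

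Larger in HPLM were, among stress and antioxidant genes, HMOX1 (5.41), AKR1B10 (4.60), HSPA1A (3.89), HSPA6 (3.03), HSPA5 (2.87), HERPUD1 (2.46), HSPB1 (0.76), AKR1B1 (1.31), GPX2 (1.16), ALDH1A1 (1.505) and SULT1E1 (2.66). Among amino acid, sugar and sterol genes they were CTH (1.97), CBS (0.57), SLC7A11 (1.63), SLC7A5 (0.93), STARD4 (3.45), MSMO1 (2.12), LRP6 (1.00), SLC2A3 (0.81), PFKFB3 (1.56), HKDC1 (1.78), SLC16A1 (2.72), PACSIN3 (1.35) and BNIP3 (0.59). Among epithelial and secreted genes they were TFF1 (3.49), ANXA13 (2.98), SPRR2D (2.78), ANXA10 (1.13), TM4SF4 (1.75), KRT7 (1.68), GPA33 (1.43), CDH17 (1.36), SFTPB (1.15), SFTA3 (0.87), AGR3 (1.15), LCN2 (2.44) and TFPI2 (1.45). Among matrix, signalling and other genes they were MMP9 (2.88), AREG (2.37), ERRFI1 (1.70), FN1 (0.90), COL1A1 (1.27), TGFB2 (0.78), EPHA4 (0.52), IL6 (1.63), CCL2 (0.52), HLA-DMB (1.32) and BUB1 (1.54), and among HOX genes HOXA9 (0.64), HOXA11 (0.87), HOXA13 (0.82) and HOXC8 (0.71). For a gene that was higher in HT29 in both media, such as AKR1B10 or TM4SF4, larger means a narrower gap. Smaller in HPLM were RARRES1 (−3.15), RGCC (−3.12), MIR4482 (−3.11), VGLL1 (−2.95), RAMP1 (−2.73), MT-CYB (−1.38), MT-ND2 (−1.31), SOX2 (−1.23), HOXD1 (−0.81), HOXB4 (−0.81), DAB2 (−0.65) and AQP4 (−0.46).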

How the results depend on the processing

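Differences of named genes in HPLM had the same sign and side of the threshold in 3562 of 3590 refits, were newly called in 11, lost the call in 7 and turned sign in 10. RPS2 became −0.26 with DESeq2, −0.22 with TMM scaling, −0.27 with edgeR, −0.17 with median centring and −0.14 without mitochondrially encoded genes, and RPS3A −0.25, −0.21, −0.26, −0.15 and −0.12. PSAT1 and EEF1A1 were called higher in HT29 by those 5, and TXNIP lost its call with them. VGLL1 lost its call with DESeq2 and edgeR. EEF1A1 was also called without HT29 HPLM library 3.

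Genes higher in H441 numbered 5711 with DESeq2 and 5855 with edgeR, where 13960 genes were tested. At 2-fold or more they numbered 2493 and 2449, and 2865 with a pseudocount of 5. Genes 2-fold or more higher in HT29 numbered 1515 with a filter of 5 TPM and 1164 with a pseudocount of 5. Leaving out a library gave 8501 to 9026 higher in H441, 4576 to 5096 higher in HT29, and 4453 to 4861 and 2374 to 2547 at 2-fold or more. The interaction gave 1462 larger and 1127 smaller with TMM scaling and 1165 and 1178 without mitochondrially encoded genes. Leaving out a library gave 1337 to 4924 larger and 327 to 1927 smaller, the highest of both without HT29 RPMI-1640 library 1. The cause of these shifts was not tested. Where a library was left out, the remaining 2 carried their group.

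A replicate block by library number gave 8574 and 4833 calls, 4628 and 2428 at 2-fold or more, and 1930 larger and 480 smaller interactions, each within 1.5 times the count without it. The numbers are not taken as pairs. Depth limits genes near 1 TPM most, and genes listed at 0 in a line have no fold.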

Other observations

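Line differences were uneven along the genome. Relative to all tested genes, the median difference per chromosome was highest on chromosome 14 (0.656 over 599 genes), chromosome 21 (0.557 over 181) and chromosome 4 (0.402 over 628), and lowest on chromosome 15 (−0.564 over 590) and chromosome 20 (−0.433 over 478). On chromosome 14, 71.1% of genes were higher in H441, and on chromosome 15, 27.1%. In RPMI-1640 the same medians were 0.601, 0.494, 0.307, −0.550 and −0.40. Without mitochondrially encoded genes the HPLM values were 0.667, 0.575, 0.397, −0.562 and −0.416. The copy number of these chromosomes was not tested.

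A pair of neighbourhoods, chosen after their values were seen, showed runs of adjacent genes with the same direction. On chromosome 12, TWF1 (43793723 to 43806375), which binds actin, averaged 101 ± 7.26 TPM in HT29 and 0.375 ± 0.00947 in H441, and its neighbours PUS7L (9.16 ± 0.918 TPM in HT29 and 0.166 ± 0.0803 in H441), IRAK4 (11.8 ± 0.848 TPM in HT29 and 0.324 ± 0.0839 in H441) and TMEM117 (1.58 ± 0.197 TPM in HT29 and 0.0347 ± 0.0311 in H441) were near 0 in H441 too. IRAK4 is a kinase of Toll-like and interleukin 1 receptors. On chromosome 7, around the imprinted pair SGCE (158 ± 2.31 TPM in H441 and 0.471 ± 0.13 in HT29) and PEG10 (806 ± 43.7 TPM in H441 and 1.13 ± 0.115 in HT29), the neighbours TFPI2 (178 ± 7.76 TPM in H441 and 0.259 ± 0.179 in HT29), BET1 (38.5 ± 1.04 TPM in H441 and 15.6 ± 1.15 in HT29), CASD1 (84.8 ± 5.03 TPM in H441 and 14.3 ± 1.44 in HT29), PPP1R9A (37.5 ± 1.69 TPM in H441 and 8.69 ± 0.599 in HT29), PON1 (1.52 ± 0.31 TPM in H441 and 0.79 ± 0.0871 in HT29), PON3 (42.5 ± 1.86 TPM in H441 and 5.94 ± 0.183 in HT29) and PON2 (432 ± 19.5 TPM in H441 and 74.9 ± 2.83 in HT29) were higher in H441. GNGT1 (1.05 ± 0.0723 TPM in H441 and 1.69 ± 0.49 in HT29) and PDK4 (0.766 ± 0.212 TPM in H441 and 2.98 ± 0.232 in HT29) in the same stretch were higher in HT29, and SGCE and PEG10 abut head to head.

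Next to the HOXB cluster on chromosome 17, SKAP1, an adaptor of lymphocyte adhesion, averaged 38.9 ± 2.98 TPM in HT29 and 0.75 ± 0.184 in H441, PRR15L 49.5 ± 3.13 TPM in HT29 and 7.04 ± 0.881 in H441 and SP6 13.3 ± 1.69 TPM in HT29 and 0.442 ± 0.122 in H441, while CBX1 (179.9 ± 4.18 TPM in H441 and 81 ± 8.62 in HT29) and KPNB1 (293 ± 7.91 TPM in H441 and 182 ± 14.2 in HT29) were higher in H441.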
